A study of Mus musculus with 2 samples.

Results

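The GENCODE M21 annotation of the mouse genome marks 21848 transcripts as retained_intron, and long reads of hippocampus RNA fell on 3083 of them, or 14.1%. A transcript counted as a member of the set when its model was of the class Known (matched to an annotated transcript), its annotated type was retained_intron, and it had 1 or more reads in either library. The members made up 12.5% of the 24612 Known transcripts with reads and came from 2524 genes, 2487 of them protein-coding. They held 18161 reads, 8971 in replicate 1 and 9190 in replicate 2, so they are many transcripts with few reads. The tissue was labelled as a layer of hippocampus of adult C57BL/6 mice, strain B6NCrl, aged 6 months. A description names the mice as male, while the field for sex was left unfilled. The labels give 1 group of 2 libraries, replicate 1 and replicate 2, with separate biosamples but 1 shared donor identifier and no treatment or altered allele. They do not say whether 2 animals were sampled. Every comparison below therefore sets 1 library against the other, and its p-value measures counting error between these libraries, which may be technical.

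An intron is retained when splicing leaves it in an otherwise processed RNA. Many such RNAs stay in the nucleus. Those that reach the ribosome are often degraded, because the intron usually brings a stop codon into the reading frame ahead of the normal one. In neurons some are stored in the nucleus and spliced later. GENCODE gives the type retained_intron to an alternative transcript that is thought to contain intronic sequence relative to the coding transcripts of its locus. Many such entries are partial and rest on cDNA or EST evidence that starts or ends inside an intron. A read of such an entry need not hold a whole intron.

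The sequences of introns that the leading members keep whole are shown first, because they let a reader see what the retained stretch would add to the message. They were taken from the GENCODE M21 transcript that keeps the intron, in build mm10, and are written 5′ to 3′ on the strand of the gene. Capitals mark the GT at the 5′ splice site, the AG at the 3′ splice site and, where the reading frame of a coding transcript runs into a stop codon inside the intron, that codon. The first 4 introns lie inside an internal exon of a member whose chain of introns is its own. The other 4 whole introns, of at most 150 bases, belong to members among the 20 with most reads.
Mdp1-202: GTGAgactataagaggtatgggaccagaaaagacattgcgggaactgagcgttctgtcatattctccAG
Mrps26-201: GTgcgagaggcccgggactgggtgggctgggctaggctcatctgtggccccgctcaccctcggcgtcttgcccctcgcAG
Tesc-203: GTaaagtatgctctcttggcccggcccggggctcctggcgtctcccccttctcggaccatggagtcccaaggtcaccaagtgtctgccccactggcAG
Fdx1l-203: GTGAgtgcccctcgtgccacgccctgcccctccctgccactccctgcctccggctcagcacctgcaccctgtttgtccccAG
Pgp-202: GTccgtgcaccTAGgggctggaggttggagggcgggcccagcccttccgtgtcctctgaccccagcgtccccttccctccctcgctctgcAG
Gfra4-208: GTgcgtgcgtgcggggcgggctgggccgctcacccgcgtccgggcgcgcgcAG
Hsp90aa1-206: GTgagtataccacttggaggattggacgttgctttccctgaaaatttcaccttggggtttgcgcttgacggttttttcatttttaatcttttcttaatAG
Ckb-204: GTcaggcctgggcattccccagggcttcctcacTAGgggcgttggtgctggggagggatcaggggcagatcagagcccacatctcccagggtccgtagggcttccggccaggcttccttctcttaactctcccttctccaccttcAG
For leading members that keep longer introns, the ends are shown: 3 exon and 6 intron bases at the donor, and 20 intron and 3 exon bases at the acceptor.
Metap2-209 donor: gacGTtagt
Metap2-209 acceptor: tgaatatttgtatctcacAGcaa
Eif2s2-203 donor: aagGTagta
Eif2s2-203 acceptor: acttgttttcaatgtcttAGgat
Rpl14-202 donor: atgGTgagt
Rpl14-202 acceptor: tgtttcttttcctgttttAGgtg
Ngrn-202 donor: gagGTacct
Ngrn-202 acceptor: ccattggttctttcccccAGcgc

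Their positions follow. The Mdp1 intron is at chr14:55660099-55660167 on the minus strand, the Mrps26 intron at chr2:130564228-130564307 on the plus strand, the Tesc intron at chr5:118056439-118056536 on the plus strand and the Fdx1l intron at chr9:21073182-21073263 on the minus strand. The Pgp intron is at chr17:24471150-24471241 on the plus strand, the Gfra4 intron at chr2:131041342-131041394 on the minus strand, the Hsp90aa1 intron at chr12:110695419-110695518 on the minus strand and the Ckb intron at chr12:111670015-111670161 on the minus strand. The Metap2 intron is at chr10:93879643-93880072 on the minus strand, the Eif2s2 intron at chr2:154884447-154887703 on the minus strand, the Rpl14 intron at chr9:120571542-120572095 on the plus strand and the Ngrn intron at chr7:80261424-80261820 on the plus strand. All 12 lie within the coding span of their gene and outside annotated UTRs. Ckb-204 keeps 6 whole introns, Metap2-209 keeps 4 and Rpl14-202 keeps 2, and the intron shown is the one spliced in most reads. In the frame of a coding transcript, the stop codon of Mdp1 and of Fdx1l begins at base 2 of the intron. That of Pgp begins at base 12 and that of Ckb at base 34. This frame takes all earlier introns as spliced out, so the Ckb stop need not be the first in Ckb-204. The introns of Mrps26, Tesc, Gfra4 and Hsp90aa1 hold no stop in that frame, and none of these 4 has a length that is a multiple of 3, so that the frame after the intron would shift.

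Replicate 1 held 1330153 reads and replicate 2 held 1366252, of which 66.3% and 70.1% were Known. A single read was worth 0.752 CPM (counts per 1000000 reads of the library) in replicate 1 and 0.732 CPM in replicate 2. Markers of neurons, astrocytes, oligodendrocytes, microglia and hippocampus were present in both libraries, with no gene of these lists at 0. The sum of each list was lower in replicate 1 than in replicate 2. It was 4259.7 against 5372 CPM for neurons, 2782 against 3049.9 for astrocytes and 4907 against 6644 for oligodendrocytes. For microglia it was 781 against 984 CPM and for hippocampus 544 against 588. The 8 choroid plexus markers summed to 14140.5 CPM in replicate 1, against 386 CPM in replicate 2, where 1 of the 8 was at 0, and the 4 meninges markers to 1198 CPM in replicate 1, against 2856 CPM in replicate 2. The libraries thus differed in the markers of both tissues, in opposite directions. Members of choroid plexus genes had 6 reads in replicate 1 and 3 in replicate 2. The part of these differences in the results below was not tested. In bulk RNA, fewer cells of a type and less RNA per cell cannot be told apart.

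Retained-intron transcripts were a small part of both libraries. They held 1.02% of Known reads in replicate 1 (exact Clopper-Pearson 95% interval 0.997 to 1.04) and 0.959% in replicate 2 (0.940 to 0.979), a mean of 0.988% ± 0.0412 (SD, n = 2). Intervals cover counting error only. The ratio of the shares was 1.06 (two-sided Fisher's exact test, p = 6.51e-05). As a share of all reads the values were 0.674% in replicate 1 and 0.673% in replicate 2, so by this denominator the libraries stood nearly level. The members' share stood above that of annotated nonsense-mediated decay transcripts, 0.286% in replicate 1 and 0.301% in replicate 2, and above that of processed transcripts, 0.605% and 0.60%. Protein-coding transcripts held 90.7% in replicate 1 and 91.2% in replicate 2.

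Most members were seen rarely. A single read supported 1404 of them (45.5%), and the median was 2 reads over both libraries, against 12 for the 4124 other Known transcripts of the same genes. Replicate 1 detected 2159 members and replicate 2 detected 2172. Both libraries shared 1248, while 911 were seen only in replicate 1 and 924 only in replicate 2, and no member seen in a single library had more than 14 reads. Of the 335 members with at least 10 reads, 333 were seen in both libraries. At least 50 reads fell on 62 members and at least 100 on 22. The 20 members with most reads held 20.0% of all member reads and the 100 with most held 44.1%. A gene had a single member in 2065 of 2524 cases, and the most in a gene was 5, in Fyttd1 and in Tmem191c.

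**Figure D1:**
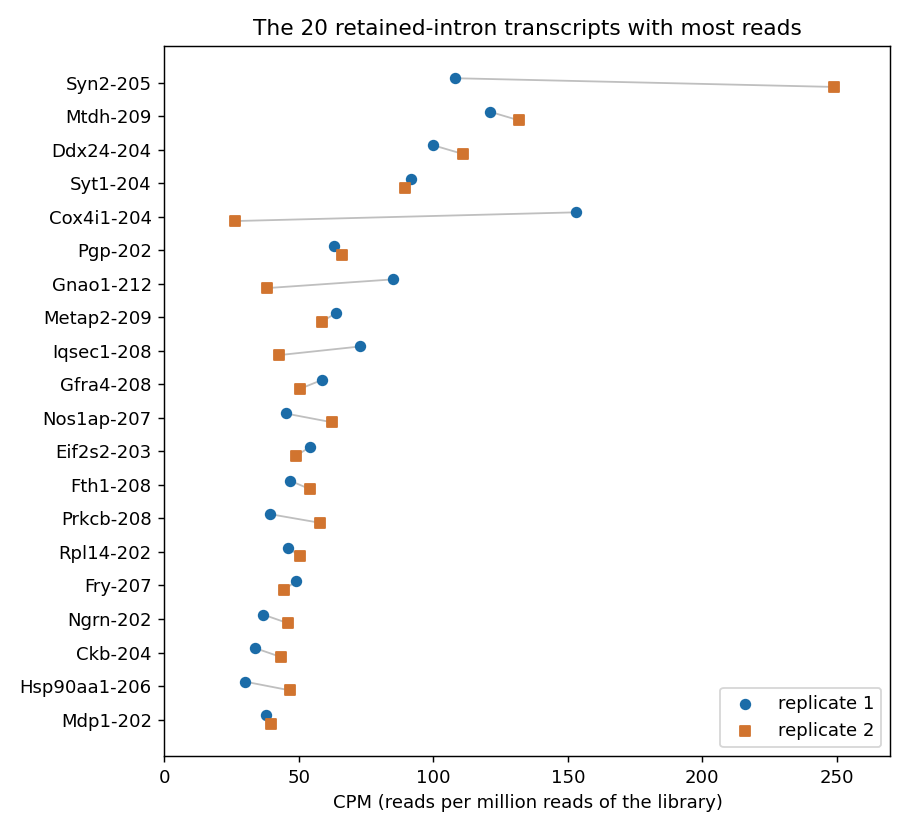
Level of the 20 retained-intron transcripts with most reads, in CPM (x axis), with 1 point for each library. Syn2-205 and Cox4i1-204 had the widest gaps, in opposite directions, and the points of Syt1-204, Pgp-202 and Mdp1-202 lay close together.

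The leading members came from synaptic, signalling, translation and housekeeping genes. Syn2-205, of the gene for synapsin II, a phosphoprotein of synaptic vesicles, had 144 reads in replicate 1 and 340 in replicate 2. Syt1-204, of the gene for synaptotagmin 1, the calcium sensor of vesicle release, had 122 reads in each. Mtdh-209 had 161 and 180 reads, Ddx24-204 133 and 151, and Cox4i1-204 203 and 36 in replicates 1 and 2. Mtdh encodes metadherin, Ddx24 a DEAD-box RNA helicase and Cox4i1 a subunit of cytochrome c oxidase. Syn2-205 was lower and Cox4i1-204 higher in replicate 1, and for the other 3 the difference did not pass the test given below.

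Among genes of signalling, Gnao1-212 (the alpha subunit of the G protein Go) had 113 reads in replicate 1 and 52 in replicate 2. Iqsec1-208 (an exchange factor for Arf GTPases) had 97 and 58 reads, Nos1ap-207 (an adaptor of neuronal nitric oxide synthase) 60 and 85, and Prkcb-208 (protein kinase C beta) 52 and 79. Gfra4-208, of a receptor gene of the GDNF family, had 78 and 69. Fry-207, of the gene for a large protein that binds microtubules, had 65 and 61. Gnao1-212 and Iqsec1-208 were higher in replicate 1, as given below, and for the other 4 the difference did not pass the test.

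The remaining leading members belong mostly to genes of protein synthesis, folding and metabolism. Metap2-209 (a methionine aminopeptidase) had 85 reads in replicate 1 and 80 in replicate 2, Eif2s2-203 (the beta subunit of initiation factor eIF2) 72 and 67, and Rpl14-202 (a ribosomal protein) 61 and 69. Hsp90aa1-206 (a cytosolic chaperone) had 40 and 64 reads and Ngrn-202 (neugrin) 49 and 63. Pgp-202 (phosphoglycolate phosphatase) had 84 and 90, Mdp1-202 (a magnesium-dependent phosphatase) 50 and 54, Fth1-208 (ferritin heavy chain) 62 and 74, and Ckb-204 (brain creatine kinase) 45 and 59. For none of these 9 did the difference pass the test.

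The structure of a member decides what a read placed on it shows. Only 224 members, with 6.25% of the member reads in replicate 1 and 7.12% in replicate 2, had a chain of introns that ran through no transcript of the gene annotated as another type. The chain of 2391 members, with 75.3% of reads in replicate 1 and 76.5% in replicate 2, also ran unbroken through such a transcript, and for 2352 of these (98.4%) through a protein-coding one. The remaining 468 members, with 18.4% and 16.4% of reads, had a single exon and so no chain. Of the shared chains, 1436 were the last introns of the other transcript, 878 the first, 71 in the middle and 6 all of them. In replicate 1, none of the 1814 multi-exon members detected shared its whole chain with another model of its gene that had reads there. In replicate 2 none of 1879 did. All reads of that chain were thus listed on the member, and the tables give no ends of single reads. For a shared chain, a read that reached into the intron and a read of part of the coding transcript cannot be told apart in these tables.

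**Figure D2:**
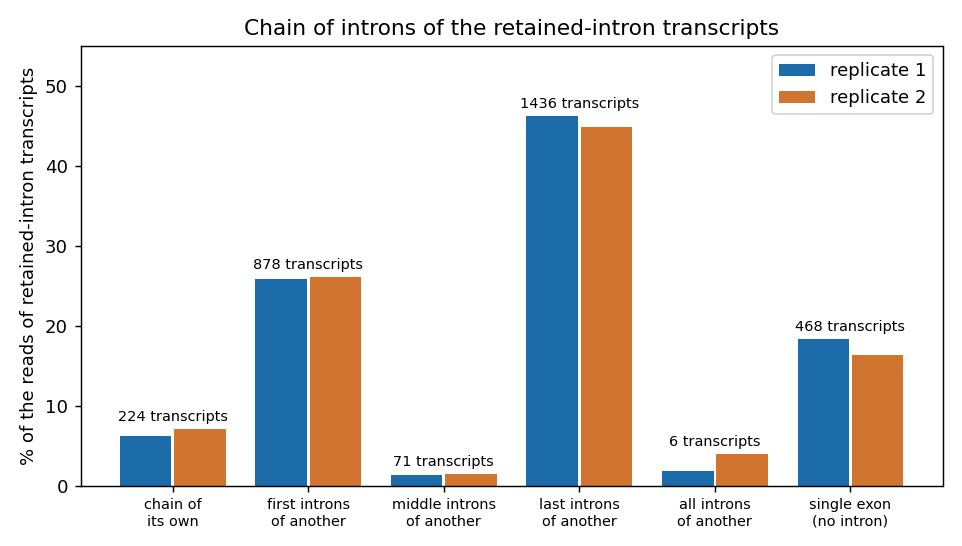
Share of the reads of retained-intron transcripts in each library (y axis, %), by how the chain of introns of the member relates to other annotated transcripts of its gene (x axis), with the number of members above the bars. The last introns of another transcript took the most reads, 46.3% in replicate 1 and 44.9% in replicate 2.

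Leading members show each case. Syn2-205 has 11 exons, keeps no whole intron, and has exactly the introns of the coding transcripts Syn2-202 and Syn2-203, on which no reads were listed. The other coding transcript of the gene, Syn2-201 with 13 exons, had 38 reads in replicate 1 and 93 in replicate 2. The same held for 5 further members whose chain was that of another transcript with no reads, and Fau-207 with 13 and 21 reads was the highest of them. Mtdh-209 has 2 exons and 4582 bases and ends inside an intron, and its only intron is the first of Mtdh-201, which had 1 read in replicate 1 and 4 in replicate 2. Syt1-204 and Ddx24-204 likewise have 2 exons and hold the first intron of Syt1-201 (29 and 57 reads) and Ddx24-201 (63 reads in each library). Cox4i1-204 has 3 exons, starts inside an intron and holds the last introns of Cox4i1-201, which had 2204 reads in replicate 1 and 2489 in replicate 2. Iqsec1-208, Gnao1-212, Pgp-202, Prkcb-208 and Fry-207 have a single exon. Of the 20 leading members, Mdp1-202 alone had a chain of its own, and Mdp1-201, its coding partner, had 57 reads in replicate 1 and 79 in replicate 2.

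By their exons, 888 members kept at least 1 whole intron and held 38.3% of the member reads in replicate 1 and 39.0% in replicate 2. Another 1150 started inside an intron (34.3% and 31.4% of reads), 914 ended inside one (22.4% and 22.9%), and 86 did both. The remaining 45 members, among them Syn2-205 and Iqsec1-208, did none of these. A whole intron lay inside an internal exon, with a splice junction on either side, in 146 members, which held 4.82% of the member reads in replicate 1 and 5.45% in replicate 2.

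Members were shorter than the other Known transcripts of their genes, and fewer of them ended with a poly(A) signal. Their median was 3 exons and 1028 bases, against 8 exons and 2149.5 bases. A single exon made up 15.2% of members and 0.267% of the others. A poly(A) signal, searched on the transcript strand as AATAAA or ATTAAA in the last 50 bases, was found in 33.8% of members and in 68.4% of the others. It was found in 74.1% of the 749 members that ended within 50 bases of the end of a coding transcript, and in 24.8% of the 1198 that ended in an intron. A match describes the annotated end and not the ends of reads. An annotated start within 50 bases of a coding start was seen in 33.2% of members and 51.4% of the others.

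The introns kept whole were short. The members held 1481 distinct introns of a median of 252 bases (quartiles 118 and 639, range 37 to 5322), against a median of 1414 for the 41414 introns of the same genes. Under 200 bases were 42.3% of the kept introns and 12.9% of all introns. GT and AG ended 97.0% of the kept introns, and GC and AG ended another 28. At least 1 read spliced 1185 of the 1481. Of the kept introns, 76.4% lay in a coding span, and 29.3% of these had a length that is a multiple of 3. Where the frame could be read, 999 of 1130 introns (88.4%) held a stop codon in frame, first met at a median of base 40.

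The retained share of an intron could be measured most directly where the intron lay inside an internal exon. A read that kept it then had to hold both neighbouring junctions. Reads that spliced it needed only the junction of the intron itself, so the kept percentages lean low. For Mdp1, models that kept the intron in any exon had 51 reads in replicate 1 and 57 in replicate 2, against 50 and 54 counted here. Of 221 such introns, 137 had at least 20 reads that either kept or spliced them, counting models of every class. The median was 1.69% kept over both libraries (quartiles 0.734% and 5.10%). The share was under 5% for 100 introns, 10% or more for 23, and 50% or more for 2.

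Some introns were kept in a large part of the reads in both libraries. The 69-base intron of Mdp1 was kept in 50 reads and spliced in 59 in replicate 1, or 45.9% kept (36.3 to 55.7), and kept in 54 and spliced in 82 in replicate 2, or 39.7% (31.4 to 48.4). Exons of Mdp1-202 overlap Gm49299 and those of Fdx1l-203 overlap Gm38431 and Gm49373, all on the same strand, and those of Mrps26-201 overlap 4930473A02Rik on the opposite strand. The 98-base intron of Tesc, which encodes the calcium-binding protein tescalcin, was kept in 49 reads of 230 (21.3%) in replicate 1 and 46 of 196 (23.5%) in replicate 2. The 82-base intron of Fdx1l, the gene of a mitochondrial ferredoxin, was kept in 21.4% and 19.2%. In these genes the intervals of the libraries overlapped. The 80-base intron of Mrps26, a gene of the mitochondrial ribosome, was kept in 54 reads of 162 (33.3%, 26.1 to 41.2) in replicate 1 and 38 of 197 (19.3%, 14.0 to 25.5) in replicate 2, so the intervals did not overlap. They were not adjusted for the number of introns. The member share of the Known reads of Mrps26 did not differ by the test given below (adjusted p = 0.878 by Fisher's exact test). Nearly all reads that kept these 4 introns lay on the member itself.

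**Figure D3:**
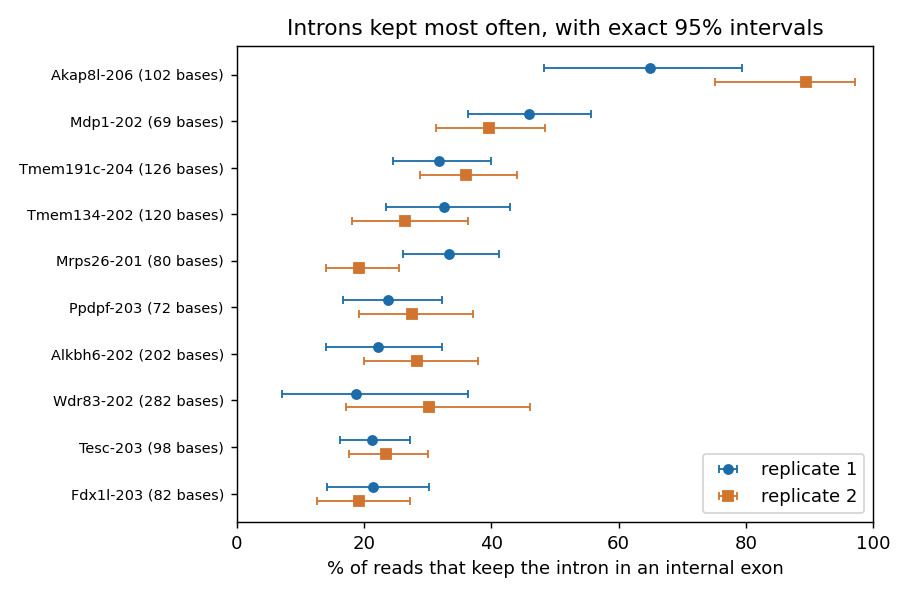
Percentage of reads that kept an intron inside an internal exon (x axis), for the 10 such introns with the highest share and at least 50 reads, with exact Clopper-Pearson 95% intervals for each library. Mdp1-202 lay between 39.7% and 45.9% in the libraries, and the intervals overlapped for each intron except those of Mrps26-201. The intervals were not adjusted for the number of introns.

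For other introns the member carried few of the reads that kept them. The 102-base intron of Akap8l, which encodes a nuclear anchoring protein of the A-kinase family, was kept in 26 of 40 reads (65.0%) in replicate 1 and 34 of 38 (89.5%) in replicate 2. Akap8l-206 itself had 0 reads in replicate 1 and 1 in replicate 2. The intron of Tmem191c-204 was kept in 31.8% and 36.1%, with 5 and 0 reads on the member, and that of Ppdpf-203 in 23.8% and 27.6%, with 5 and 2 reads on the member. The retained-intron annotation thus named the intron, while other models of the gene held the reads.

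Where the intron lay in a first, last or single exon, the reads on the member and the reads that spliced it can be set side by side, but the ends of reads are not known. Models that span the 92-base intron of Pgp had 84 reads in replicate 1 and 90 in replicate 2, and 210 and 248 reads spliced it. For the 430-base intron of Metap2-209 the counts were 85 and 80 spanning against 49 and 41 spliced, and for the 397-base intron of Ngrn-202 they were 49 and 63 against 33 and 21. The 53-base intron of Gfra4 was spanned by 135 and 136 reads and spliced by 0 and 1. At the other extreme, the 147-base intron of Ckb-204 was spanned by 47 and 59 reads and spliced by 7330 and 9386.

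Within a gene, the retained-intron share of Known reads was mostly low. Over the 1592 genes with a member and at least 20 Known reads over both libraries, the median was 2.36% (quartiles 0.957% and 6.06%). It was under 5% in 1125 genes and at least 10% in 265. In 59 genes (3.71%) members held at least 50% of the Known reads, and 53 of these passed that level in each library. A gene enters with 1 member read, so that the lowest possible share is higher in genes with fewer reads. The median was 6.12% in the 367 genes with 20 to 49 Known reads, 3.26% in 325 genes with 50 to 99, 1.45% in 671 genes with 100 or more but fewer than 500, and 0.629% in 229 genes with 500 or more.

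Among genes with at least 20 Known reads in each library, members held every Known read in 6: Gfra4, Iqsec1, Uchl1, Pcdh9, Egr3 and Eprs. Gfra4 had 89 member reads in replicate 1 and 81 in replicate 2, Iqsec1 97 and 58, Uchl1 67 in each, Pcdh9 30 and 55, Egr3 55 and 28, and Eprs 32 and 44. Uchl1 encodes a ubiquitin hydrolase abundant in neurons, Pcdh9 a protocadherin, Egr3 an activity-induced transcription factor and Eprs a transfer RNA synthetase. The next were Mtdh at 98.6%, Fry at 98.4%, Ank2 at 97.6% and Ctnnd2 at 96.2%. Ank2 encodes ankyrin B, which links membrane proteins to the cytoskeleton, and Ctnnd2 encodes delta-catenin.

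These shares rest on the Known class as the denominator. Uchl1 had 1091 reads of every class in replicate 1 and 1122 in replicate 2, so its 67 member reads in each were 6.06% of the whole over both libraries. Of its reads, 71 in replicate 1 and 1006 in replicate 2 were placed in the class of incomplete matches to an annotated transcript, so the class that took most of the gene's reads differed between the libraries. Eprs had 164 and 210 reads of every class, 112 and 137 of them incomplete matches. Hsp90aa1 members held 89.1% of Known reads but 7.67% of all reads, and Syt1 members 74.0% of Known but 18.2% of all. Of Egr3, by contrast, 55 of 55 reads in replicate 1 and 28 of 29 in replicate 2 were member reads. Its only member, Egr3-202, has a single exon that starts inside an intron and keeps no whole intron. A read of it holds no splice junction. Of the 59 genes at 50% or more by Known reads, 23 were at 50% or more by all reads. The median share of all reads was 1.49%.

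**Figure D4:**
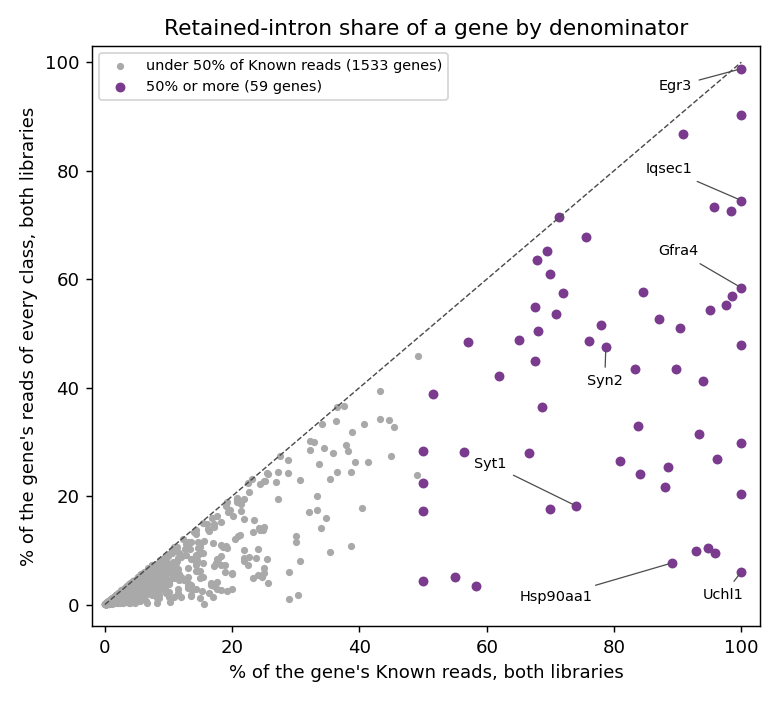
Share of a gene's reads on retained-intron transcripts over both libraries, for 1592 genes, as a percentage of Known reads (x axis) and of reads of every class (y axis). The dashed line marks equal shares. Egr3 lies near it, while Uchl1 and Hsp90aa1 fall to 6.06% and 7.67% by all reads.

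The part of Known reads that lay on members ranged widely over gene groups, beside 1.02% in replicate 1 and 0.959% in replicate 2 over all genes. No test was made over lists. Genes of synaptic vesicles and fusion stood at 4.57% and 5.89%, with Syn2, Syt1 and Nsf (the ATPase that disassembles SNARE complexes, 20 and 23 member reads) leading. Syn2 and Syt1 held 267 of the 296 member reads of the list in replicate 1 and 464 of 496 in replicate 2, and without them the list stood at 0.472% and 0.410%, below all genes. Members were found for 8 of the 21 genes of this list that have one annotated. Postsynaptic and receptor genes stood at 0.592% and 0.720%, led by Gria2, an AMPA receptor subunit, with 9 and 13 member reads. Cytoskeletal genes stood at 0.346% and 0.321%, where Ank2 held 62 of 79 member reads in replicate 1 and 58 of 95 in replicate 2.

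Genes of RNA processing, in which regulated intron retention is well known, stood above the value of all genes by this measure. This rested on few reads and in part on 1 or 2 genes of a list. SR proteins and their kinases stood at 1.80% in replicate 1 and 2.03% in replicate 2, hnRNP proteins at 1.88% and 1.72%, and other spliceosome and RNA-binding proteins at 1.76% and 1.53%. Srsf11 had 4 and 8 member reads of 6 and 8 Known reads, but these were 4.55% of its reads of every class. Hnrnpr had 12 and 16 member reads of 58 and 91 Known reads, Rbm39 10 and 11 of 45 in each library, and Clk4, a kinase of SR proteins, 3 and 3 of 23 and 16. Without Hnrnpr the hnRNP list stood at 0.898% in replicate 1 and 0.506% in replicate 2, below all genes. Without Srsf11 and Srsf2 the SR list stood at 1.08% and 0.876%, above all genes in replicate 1 and below them in replicate 2. The third list stayed above all genes without Rbm39 and U2af1l4, at 1.22% and 1.05%. None of these 3 lists held a gene at 50% or more with at least 20 Known reads.

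Of 5 housekeeping groups, 4 stood below the value of all genes in both libraries. Cytosolic ribosomal proteins stood at 0.832% in replicate 1 and 0.681% in replicate 2, translation factors at 0.906% and 0.735%, chaperones at 0.740% and 0.672%, and glycolysis at 0.370% and 0.303%. The fifth, respiratory chain genes, stood above it in replicate 1 at 1.14% and below it in replicate 2 at 0.672%, with Cox4i1 holding 210 of 343 member reads in replicate 1 and 58 of 207 in replicate 2. Rpl14 led the ribosomal list with 65 and 73 member reads, Eif2s2 the translation factors with 72 and 67, and Eno1, the enolase of glycolysis, its list with 25 and 26. Atp5b, a subunit of ATP synthase, had 40 and 48 member reads.

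Genes of glia, of choroid plexus and of long noncoding RNAs had few member reads for their level. Astrocyte genes had 11 member reads of 27662 Known reads (0.0398%) in replicate 1 and 13 of 27658 (0.0470%) in replicate 2, with 1 and 3 of them on Apoe, a lipid carrier with 10154 and 9995 Known reads. Myelin and oligodendrocyte genes stood at 0.231% and 0.227%, and choroid plexus genes at 0.0347% and 0.806%. Long noncoding RNA host genes, among them Snhg11 and Gas5, stood at 0.199% and 0.316%. The choroid plexus value rests on 17307 Known reads in replicate 1 and 372 in replicate 2, so that the 3 member reads of replicate 2 weigh more. In every list, genes with no annotated retained-intron transcript can hold no member read, while their Known reads count in the share. One is annotated for 10 of 18 astrocyte, 8 of 17 myelin, 4 of 12 choroid plexus and 5 of 22 long noncoding RNA host genes. Over all genes with Known reads it is 6883 of 14118. The annotated part was thus below that of all genes for choroid plexus and long noncoding RNA host genes. For astrocyte genes it was above that of all genes, and for myelin genes near it. How far the annotation accounts for the low shares was not tested.

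Few members were called as different between the libraries. Each Known transcript with at least 10 reads was tested, and 8 of 335 members (2.39%) passed an adjusted p of 0.05 (two-sided Fisher's exact test, adjusted by Benjamini and Hochberg's method over all 9781 Known transcripts tested). Among all Known transcripts tested 5.34% passed. Over both directions the members' share was thus below the background, but the 2 sets were not matched for depth. The test calls fewer transcripts at low counts, and 166 of the 335 members tested had at least 20 reads. Over all transcripts with reads, the median was 2 reads for members and 10 for protein-coding transcripts. Whether members varied less than other transcripts of equal depth was not tested. By direction, 7 members (2.09%) were higher in replicate 1, against a background of 1.36%, and 1 (0.299%) was higher in replicate 2, against 3.98%. The median log2 ratio of replicate 1 over replicate 2 was 0.04 over the members tested and -0.13 over all Known transcripts tested. The exact test of edgeR allows for more than counting error through a common dispersion. That dispersion was estimated from the same 2 libraries taken as replicates, so the differences under test also entered it. By this test, 2 members remained of 22 Known transcripts called.

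Those 2 were Cox4i1-204 and Rpl5-204, both higher in replicate 1. Cox4i1-204 stood at 153 CPM in replicate 1, against 26.3 CPM in replicate 2, a log2 ratio of 2.53 (exact 95% interval 2.02 to 3.09; adjusted p = 9.53e-28 by Fisher's exact test and 2.93e-07 by edgeR). Rpl5-204, of a gene of the large ribosomal subunit, had 34.6 CPM and 6.59 CPM, a log2 ratio of 2.39 (1.34 to 3.61; adjusted p = 1.69e-05 by Fisher's exact test and 0.00951 by edgeR). Both start inside an intron and have the last introns of a coding transcript. Exons of Rpl5-204 overlap Snord21 on the same strand. Ribosomal protein genes have near-identical processed copies in the genome, so the placement of their reads is uncertain, for Rps20 and Rpl14 too.

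The other 6 passed Fisher's exact test but not edgeR's. Hemk1-206, of a gene for a methyltransferase, had 14 reads in replicate 1 and 0 in replicate 2, at least 4.79-fold higher against a floor of 3 reads in that library, with an exact 95% interval of the log2 ratio that starts at 1.77. Rps20-201, of a ribosomal protein gene, had 10 and 0 reads, at least 3.42-fold higher against the same floor, with an interval that starts at 1.20. Both intervals thus reach below the fold at the floor. Gnao1-212 stood at 85.0 CPM in replicate 1, against 38.1 CPM in replicate 2 (log2 ratio 1.16, adjusted p = 5.50e-05 by Fisher's exact test), Egr3-202 41.3 and 20.5 CPM (1.01, p = 0.0410) and Iqsec1-208 72.9 and 42.5 CPM (0.78, p = 0.0235). Syn2-205 was lower in replicate 1, with 108 CPM against 249 CPM in replicate 2 (log2 ratio -1.20, adjusted p = 9.03e-16 by Fisher's exact test and 0.489 by edgeR). The coding transcript Syn2-201 had 38 reads in replicate 1 and 93 in replicate 2, and the member held 79.1% of Known reads in replicate 1 and 78.5% in replicate 2.

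**Figure D5:**
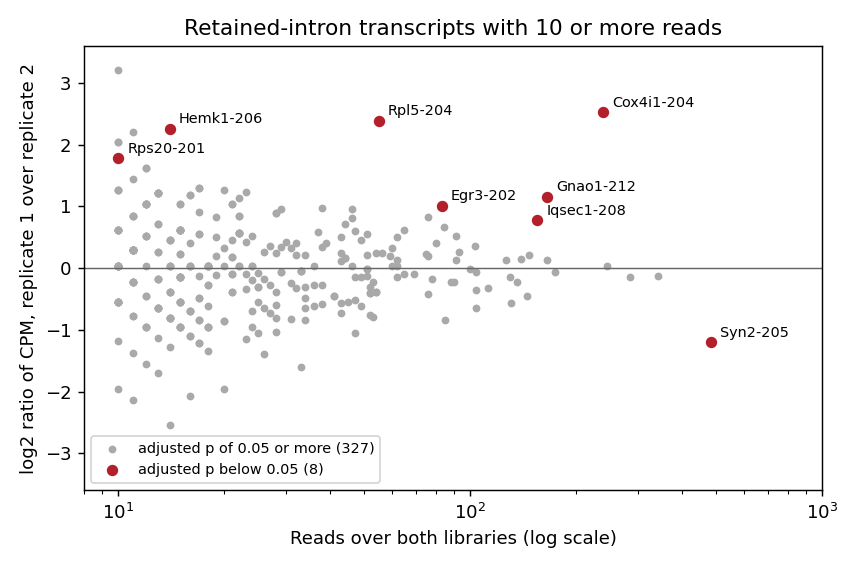
log2 ratio of CPM of replicate 1 over replicate 2 (y axis) against reads over both libraries (x axis, log scale), for the 335 retained-intron transcripts with at least 10 reads, with the 8 that passed an adjusted p of 0.05 by Fisher's exact test in red. Cox4i1-204 and Syn2-205 lie farthest apart among those with many reads.

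The mix within a gene was tested apart from the gene's level, and it differed for 2 of 1592 genes, 0.126% (two-sided Fisher's exact test of member reads against the gene's other Known reads, Benjamini-Hochberg adjustment over the 1592). An unadjusted p below 0.05 was seen for 44. In Rpl5, members held 47 of 306 Known reads (15.4%) in replicate 1 and 9 of 287 (3.14%) in replicate 2 (adjusted p = 1.43e-04). In Cox4i1 they held 210 of 2434 (8.63%) in replicate 1 and 58 of 2573 (2.25%) in replicate 2 (adjusted p = 2.29e-21). These are the genes of the 2 members that passed edgeR's test. For Syn2 and Gnao1 the share did not pass the test. In 8 of the 1592 genes, Egr3 and Iqsec1 among them, no other Known reads were there to test against. Over the genes tested, the median was 122 Known reads and the median share 2.36%. Most genes thus had few member reads, which left the adjusted test little room to call them. The 2 of 1592 therefore do not show that the mix was stable in the other genes.

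Exons of 545 members (17.7%), with 3663 reads, overlap exons of another gene. The strand setting of the library is not given in the sources used here, so for these members the reads of either gene may have been counted.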

How the data were processed

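Each library has a deposited count table, in which the authors list the raw number of long reads placed on every transcript model with at least 1 read, not normalized. The models come from TALON, per the file headers. The deposited tables also give exons and length per model, and the deposited annotations the exon coordinates. Build mm10 and GENCODE M21 are named in the description files; sources used here do not name the aligner, filters or platform. Types, chains of introns and sequences were read from GENCODE M21, and gaps under 30 bases were not taken as introns, a choice made after seeing the data. CPM used all reads of a library. Fisher's exact tests (scipy 1.17.1) took transcripts with at least 10 reads and genes with at least 20 Known reads, with Benjamini-Hochberg adjustment at 0.05; edgeR 4.0.16 gave TMM and the exact test with the common dispersion, and DESeq2 1.42.0 size factors, in R 4.3.3. A count of 0 was set to a floor of 3 reads. On simulated Poisson counts of 9807 transcripts the Fisher test called 177 of 200 that were changed 4-fold and 9 unchanged ones. The changed transcripts all had at least 20 reads, and the counts varied by counting error only. These rates therefore do not carry over to transcripts of fewer reads or to variation beyond counting error. Members and gene lists were chosen with earlier results of these data known. Named are the 20 members with most reads, the 10 genes of highest share with at least 20 Known reads in each library, up to 5 called members or genes in each direction, and leading genes of 15 lists; introns kept inside internal exons were named after their values were seen. No molecular identifiers are described, so intervals cover counting error only.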

Additional observations from a re-analysis of the deposited data

How the results depend on the processing

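The members' percentage of Known reads was 0.988, and 0.674 with all reads as the denominator, 0.920 with multi-exon transcripts only, 0.852 with members seen in each library, 0.382 with members that keep a whole intron, and 0.0659 with members whose chain is their own, an alternative added after seeing the data. With 1 library left out it was 0.959 to 1.02. Of the 3083 members, 1679 had 2 or more reads, 1248 reads in each library, 335 at least 10 reads and 224 a chain of their own. The 8 members called between the libraries became 5 with no filter on low counts and 2 with edgeR's exact test, all of them among the 8. TMM moved the median log2 ratio of all Known transcripts to 0.00 and called 8. The 2 genes whose share differed became 5 with all reads of the gene as denominator. The 59 genes at 50% or more became 111 with at least 10 Known reads and 32 with at least 50. They became 28 without the genomic class, 23 with all reads, 40 with multi-exon members and 1 with members of their own chain. The median share of 2.36% became 3.12 with at least 10 Known reads, 1.61 with at least 50, 1.62 without the genomic class, 1.49 with all reads, 2.17 with multi-exon members and 1.3 with members of their own chain. It was 2.12 to 2.17 with 1 library left out, and the 59 genes became 58 to 59. Why these values moved was not tested, apart from the narrower sets that define them. For single members, 37 alternative fits kept the call and 9 lost it, and no direction turned. No paired analysis was possible because there is 1 group. Leaving out a library gives no test between libraries. Depth limits the members of few reads, of which 1404 rest on 1.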
